A study of Mus musculus with 18 samples.

Results

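Yap, Taz and their DNA-binding partners were followed as 8 genes in neural crest (NC) cells under osteogenic induction: Yap1, Wwtr1 (which encodes Taz), Tead1, Tead2, Tead3, Tead4, Vgll3 and Vgll4. The 8 genes were found by symbol among the 55335 gene identifiers of the counts, and all 8 had a match and passed the filter on low counts on both days. O9-1 is a line of wild type NC cells isolated from the head of early mouse embryos, used as a model of NC cells that can form osteoblasts, chondrocytes, smooth muscle and glia. All cultures were in osteoblast differentiation medium and all had been transfected with siRNA. Ctrl+vehicle cells carried a scrambled siRNA without FGF2, Ctrl+FGF2 cells carried it with FGF2, and Y/T dKD+FGF2 cells carried siRNA pools against both Yap and Taz with FGF2. Each group had 3 libraries at d2.5 and 3 at d5, 18 in all. A knockdown without FGF2 was not analysed here, so the knockdown was measured only under FGF2. The labels do not say whether replicates were separate cultures, so p-values measure the spread between these libraries, which may be technical.

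Yap and Taz are transcriptional coactivators that cannot bind DNA themselves and reach it mainly through the Tead proteins, which carry the TEA DNA-binding domain. The Hippo kinases phosphorylate both coactivators, which then stay in the cytoplasm or are degraded, so that much of their control acts on the protein and is not seen in RNA. Vestigial-like (Vgll) proteins also bind Teads, at a surface that overlaps that of Yap and Taz, and Vgll4 is known as a competitor of Yap. In NC and bone-forming cells these factors are known for roles in proliferation, stemness and the choice between osteoblast and other fates.

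Gene counts were between 10377151 and 14698525 per library, and the 8 genes held between 240 and 6284 counts each in every library. Levels are given as normalized CPM, which is counts scaled to a common library size over all 18 libraries. Changes are log2 fold changes with their standard error (SE), and genes with an adjusted p under 0.05 are called. Of 8 markers of neural crest and its mesenchyme, 7 had a median of at least 1 CPM in every group, led by Prrx1, and their sum was between 1466 and 2479 CPM, while Sox10 had no count in any library. In bulk RNA, fewer cells of a type and less RNA per cell cannot be told apart. The labels give each day its own batch, so day and batch cannot be told apart, and groups were compared within a day.

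The stretch just before the start of 4 of the genes is shown because the letters that Tead proteins recognise occur there. The TEAD core motif GGAATG was searched on both strands (CATTCC on the other) in the 250 bases before each annotated start. The sequences are from RefSeq on GRCm38.p6, and 6 of the 8 genes had an entry. The motif was found for 5 of these 6, namely Yap1, Wwtr1, Tead3, Vgll3 and Vgll4, and not for Tead2. Over all 26994 genes with such windows, 14.4% held it in at least 1 window, and 12.6% of the 32817 windows did. The 4 windows that hold the motif and touch no annotated exon of their gene are printed here 5′ to 3′ on the gene's own strand, with the motif in capitals. For Vgll4 the window lies inside the gene, before the start of a shorter transcript. A match of letters is not a measured binding site.
Yap1, chr9:8004597-8004846, minus strand: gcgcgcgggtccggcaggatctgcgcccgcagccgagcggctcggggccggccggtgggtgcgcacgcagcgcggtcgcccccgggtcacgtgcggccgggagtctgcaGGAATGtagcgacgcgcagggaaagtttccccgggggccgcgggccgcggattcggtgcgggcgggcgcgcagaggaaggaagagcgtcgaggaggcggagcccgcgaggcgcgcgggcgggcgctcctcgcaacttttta
Wwtr1, chr3:57575911-57576160, minus strand: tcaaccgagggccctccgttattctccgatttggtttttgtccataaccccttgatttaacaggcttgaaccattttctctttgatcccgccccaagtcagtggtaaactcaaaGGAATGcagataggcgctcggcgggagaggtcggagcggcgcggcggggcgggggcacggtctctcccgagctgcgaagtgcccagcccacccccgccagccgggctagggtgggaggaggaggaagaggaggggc
Vgll3, chr16:65814939-65815188, plus strand: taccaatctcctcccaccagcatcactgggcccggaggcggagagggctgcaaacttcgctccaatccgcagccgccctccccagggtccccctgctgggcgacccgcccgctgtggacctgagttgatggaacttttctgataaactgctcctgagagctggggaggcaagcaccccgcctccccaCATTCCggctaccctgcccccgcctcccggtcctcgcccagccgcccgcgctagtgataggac
Vgll4, chr6:114969204-114969453, minus strand: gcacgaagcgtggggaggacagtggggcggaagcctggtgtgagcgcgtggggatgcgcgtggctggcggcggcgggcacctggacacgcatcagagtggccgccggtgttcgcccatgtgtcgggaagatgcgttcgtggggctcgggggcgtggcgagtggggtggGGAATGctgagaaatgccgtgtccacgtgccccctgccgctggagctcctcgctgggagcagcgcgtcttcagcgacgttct
Counted from the transcript start that follows each window, which for Vgll4 is that of the shorter transcript, the motif began at −141 in Yap1, −136 in Wwtr1, −63 in Vgll3 and −82 in Vgll4. The letters of an AP-1 site (TGANTCA) were in none of the windows of the 6 genes, against 6.75% of all windows. The ETS core CGGAAG, also searched on both strands, was in the Vgll4 window only, against 13.6% of all windows.

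The siRNA targets were examined first. Yap1 (ENSMUSG00000053110.13) spans 7931999 to 8004596 of chromosome 9 on the minus strand of GRCm38, and Wwtr1 (ENSMUSG00000027803.14) spans 57455649 to 57575910 of chromosome 3, also on the minus strand. For Yap1 at d2.5, Ctrl+vehicle libraries held 148, 148 and 153 CPM, Ctrl+FGF2 libraries 132, 126 and 129, and Y/T dKD+FGF2 libraries 65.3, 65.4 and 69.6. The 3 groups did not overlap, with vehicle highest and knockdown lowest. FGF2 lowered Yap1 to 85.4% of vehicle (log2 fold change −0.23, SE 0.037, adjusted p = 3.3e-06), and knockdown lowered it to 51.5% of Ctrl+FGF2 (log2 fold change −0.96, SE 0.042, adjusted p = 9.7e-17). For Yap1 at d5, Ctrl+vehicle libraries held 137, 154 and 147 CPM, Ctrl+FGF2 libraries 159, 147 and 152, and Y/T dKD+FGF2 libraries 74.00, 67.2 and 70.2. The vehicle and FGF2 libraries overlapped on that day (log2 fold change 0.07, SE 0.048, adjusted p = 0.243), while knockdown brought Yap1 to 46.05% of Ctrl+FGF2 (log2 fold change −1.12, SE 0.051, adjusted p = 3.6e-11).

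Wwtr1 responded to FGF2 in the opposite direction to Yap1 at d2.5. For Wwtr1, Ctrl+vehicle libraries held 142, 138 and 139 CPM, Ctrl+FGF2 libraries 221, 219 and 225, and Y/T dKD+FGF2 libraries 142, 130.0 and 135. All Ctrl+FGF2 libraries lay above all others, and those of the other 2 groups overlapped. FGF2 raised Wwtr1 1.57-fold (log2 fold change 0.65, SE 0.035, adjusted p = 1.3e-16) and knockdown lowered it to 60.8% of that level (log2 fold change −0.72, SE 0.036, adjusted p = 2.6e-15). Against vehicle, Wwtr1 in knockdown cells differed by −0.06 on the log2 scale (SE 0.037, adjusted p = 0.122), whereas Yap1 was at 44.04% of vehicle (log2 fold change −1.18, SE 0.041). For Wwtr1 at d5, Ctrl+vehicle libraries held 224, 235 and 236 CPM, Ctrl+FGF2 libraries 213, 219 and 215, and Y/T dKD+FGF2 libraries 122, 128 and 124. FGF2 then came with a difference of −0.09 (SE 0.036, adjusted p = 0.0449), a call made in 6 of 18 alternative fits, whose adjusted p ran from 0.0186 to 0.15. Both the other 2 groups stood apart from the knockdown group, which was at 57.5% of Ctrl+FGF2 (log2 fold change −0.80, SE 0.038, adjusted p = 4.9e-11) and differed from vehicle by −0.89 (SE 0.038, adjusted p = 6.6e-12).

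**Figure D1:**
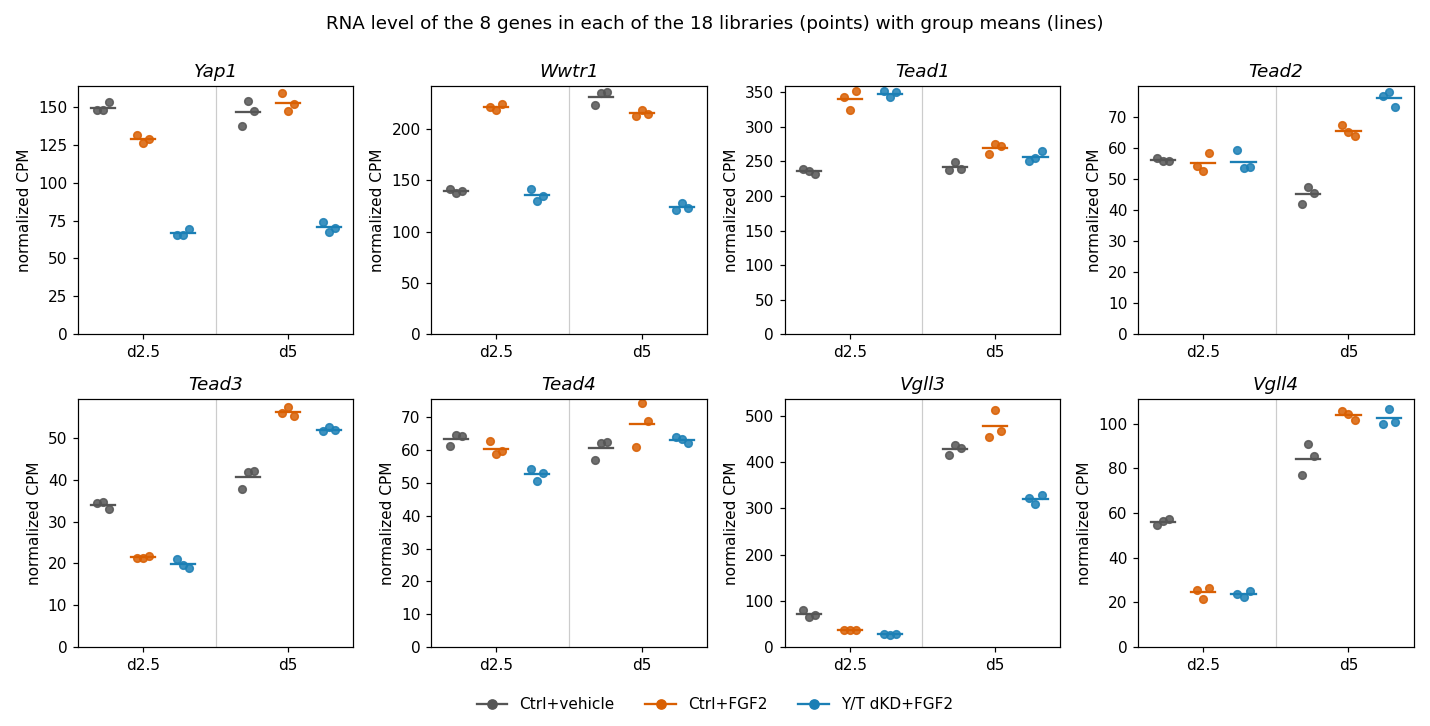
Normalized CPM of each of the 8 genes in every library (points, vertical axis from 0) with the group mean (line), by treatment group and day. The knockdown libraries are lowest for Yap1 on both days, Wwtr1 at d2.5 is high only in Ctrl+FGF2, and Vgll3 sits between 26.9 and 81.2 CPM at d2.5 and between 308 and 512 at d5.

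The Tead genes encode the DNA-binding partners, and the 4 of them did not move as a group with FGF2 at d2.5, while at d5 all 4 were called higher with it. Tead1, broadly expressed in mouse tissues, spans 112679318 to 112906807 of chromosome 7 (plus strand, ENSMUSG00000055320.17). For Tead1 at d2.5, Ctrl+vehicle libraries held 239, 236 and 232 CPM, Ctrl+FGF2 libraries 343, 324 and 353, and Y/T dKD+FGF2 libraries 352, 343 and 349.8. Every library with FGF2 was above every vehicle library, and the groups with and without knockdown overlapped. FGF2 raised Tead1 1.43-fold (log2 fold change 0.52, SE 0.034, adjusted p = 1.1e-14), and the knockdown difference was 0.02 (SE 0.033, adjusted p = 0.638). For Tead1 at d5, Ctrl+vehicle libraries held 237, 249.7 and 239 CPM, Ctrl+FGF2 libraries 260.5, 276 and 272, and Y/T dKD+FGF2 libraries 250.1, 254 and 265. The Ctrl+FGF2 libraries again lay above those with vehicle, by 1.12-fold (log2 fold change 0.17, SE 0.038, adjusted p = 0.0014), and the knockdown difference was −0.08 (SE 0.038, adjusted p = 0.13).

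Tead3 moved against Tead1 at d2.5. Tead3 (ENSMUSG00000002249.21) spans 28331671 to 28350817 of chromosome 17, minus strand. For Tead3 at d2.5, Ctrl+vehicle libraries held 34.4, 34.7 and 33.00 CPM, Ctrl+FGF2 libraries 21.3, 21.3 and 21.8, and Y/T dKD+FGF2 libraries 21.03, 19.5 and 18.95. All vehicle libraries were above the rest, and FGF2 lowered Tead3 to 62.5% of vehicle (log2 fold change −0.68, SE 0.064, adjusted p = 8.1e-11). Directions were turned at d5, when Ctrl+vehicle libraries held 37.9, 41.9 and 42.01 CPM, Ctrl+FGF2 libraries 55.9, 57.3 and 55.2, and Y/T dKD+FGF2 libraries 51.6, 52.5 and 51.8. FGF2 then raised Tead3 1.39-fold (log2 fold change 0.48, SE 0.054, adjusted p = 1.1e-06). The knockdown libraries lay just below all Ctrl+FGF2 libraries on both days, but the differences of −0.12 at d2.5 (SE 0.072, adjusted p = 0.223) and −0.12 at d5 (SE 0.052, adjusted p = 0.0968) did not pass the threshold.

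Tead2, known from the early embryo and neural progenitors, spans 45215753 to 45233644 of chromosome 7 (plus strand, ENSMUSG00000030796.17). At d2.5 it was between 52.6 and 59.3 CPM in all 9 libraries, and none of the comparisons on that day called it. At d5, Ctrl+vehicle libraries held 42.1, 47.5 and 45.7 CPM, Ctrl+FGF2 libraries 67.4, 65.2 and 63.95, and Y/T dKD+FGF2 libraries 76.8, 78.1 and 73.2. These 3 groups did not overlap, with vehicle lowest and knockdown highest. FGF2 raised Tead2 1.46-fold (log2 fold change 0.55, SE 0.054, adjusted p = 2.5e-07), and it was the only one of the 8 genes called higher with knockdown, by 1.16-fold (log2 fold change 0.21, SE 0.05, adjusted p = 0.0036).

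Tead4, which is required in the trophectoderm of the blastocyst, spans 128224288 to 128300823 of chromosome 6 (minus strand, ENSMUSG00000030353.15). For Tead4 at d2.5, Ctrl+vehicle libraries held 61.2, 64.5 and 64.4 CPM, Ctrl+FGF2 libraries 62.8, 58.8 and 59.8, and Y/T dKD+FGF2 libraries 54.3, 50.7 and 53.1. The vehicle and FGF2 groups overlapped (log2 fold change −0.08, SE 0.047, adjusted p = 0.142), and the knockdown group lay below both, at 86.6% of Ctrl+FGF2 (log2 fold change −0.21, SE 0.05, adjusted p = 0.0024). At d5 all 3 groups of Tead4 overlapped, as Ctrl+vehicle libraries held 57.1, 62.1 and 62.6 CPM, Ctrl+FGF2 libraries 61.1, 74.3 and 68.9, and Y/T dKD+FGF2 libraries 63.97, 63.4 and 62.1. The rise with FGF2 (log2 fold change 0.18, SE 0.063, adjusted p = 0.0236) was called in 13 of 18 alternative fits, and not without Ctrl+vehicle replicate 1 (adjusted p = 0.0845) or without Ctrl+FGF2 replicate 2 (adjusted p = 0.156) or 3 (adjusted p = 0.0721), with DESeq2 (adjusted p = 0.0705) or with only the 2 groups in the fit (adjusted p = 0.0615). The knockdown difference of −0.12 was not called (SE 0.062, adjusted p = 0.173), apart from the fit without Ctrl+FGF2 replicate 1, where it was −0.19 (adjusted p = 0.017).

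Vgll3 and Vgll4, the Tead cofactors, had the strongest responses to FGF2 of the 8 genes at d2.5. Vgll3, studied in muscle and mesenchymal cells, spans 65815257 to 65866368 of chromosome 16 (plus strand, ENSMUSG00000091243.2). For Vgll3 at d2.5, Ctrl+vehicle libraries held 81.2, 65.8 and 69.6 CPM, Ctrl+FGF2 libraries 37.5, 36.7 and 37.97, and Y/T dKD+FGF2 libraries 29.3, 26.9 and 27.5. The 3 groups did not overlap, with vehicle highest and knockdown lowest. FGF2 lowered Vgll3 to 51.4% of vehicle (log2 fold change −0.96, SE 0.061, adjusted p = 6.2e-15), and knockdown lowered it further, to 74.1% of Ctrl+FGF2 (log2 fold change −0.43, SE 0.072, adjusted p = 4.8e-05). For Vgll3 at d5, Ctrl+vehicle libraries held 416, 437 and 430.2 CPM, Ctrl+FGF2 libraries 455, 512 and 467, and Y/T dKD+FGF2 libraries 322, 308 and 329.7. FGF2 now raised it 1.13-fold (log2 fold change 0.17, SE 0.043, adjusted p = 0.0032), and knockdown lowered it to 66.7% of Ctrl+FGF2 (log2 fold change −0.58, SE 0.044, adjusted p = 1.5e-08), below every vehicle library.

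Vgll4 spans 114860628 to 114969994 of chromosome 6 (minus strand, ENSMUSG00000030315.15). For Vgll4 at d2.5, Ctrl+vehicle libraries held 54.5, 56.5 and 57.5 CPM, Ctrl+FGF2 libraries 25.4, 21.4 and 26.6, and Y/T dKD+FGF2 libraries 23.7, 22.2 and 25.3. FGF2 lowered Vgll4 to 43.3% of vehicle (log2 fold change −1.21, SE 0.065, adjusted p = 9.8e-17), while the groups with and without knockdown overlapped (log2 fold change −0.06, SE 0.076, adjusted p = 0.65). For Vgll4 at d5, Ctrl+vehicle libraries held 76.9, 90.7 and 85.5 CPM, Ctrl+FGF2 libraries 106, 105 and 102, and Y/T dKD+FGF2 libraries 99.9, 107 and 101. FGF2 raised it 1.24-fold (log2 fold change 0.31, SE 0.052, adjusted p = 8.9e-05), and the knockdown difference was −0.03 (SE 0.051, adjusted p = 0.742). Vgll3 passed the test for the knockdown on both days and Vgll4 on neither, and whether their responses differ was not tested. Vgll1 and Vgll2, other members of the family, had 0 counts in all 18 libraries, which allows a level of up to 0.0134 CPM over the whole series (3 counts, counting error only).

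**Figure D2:**
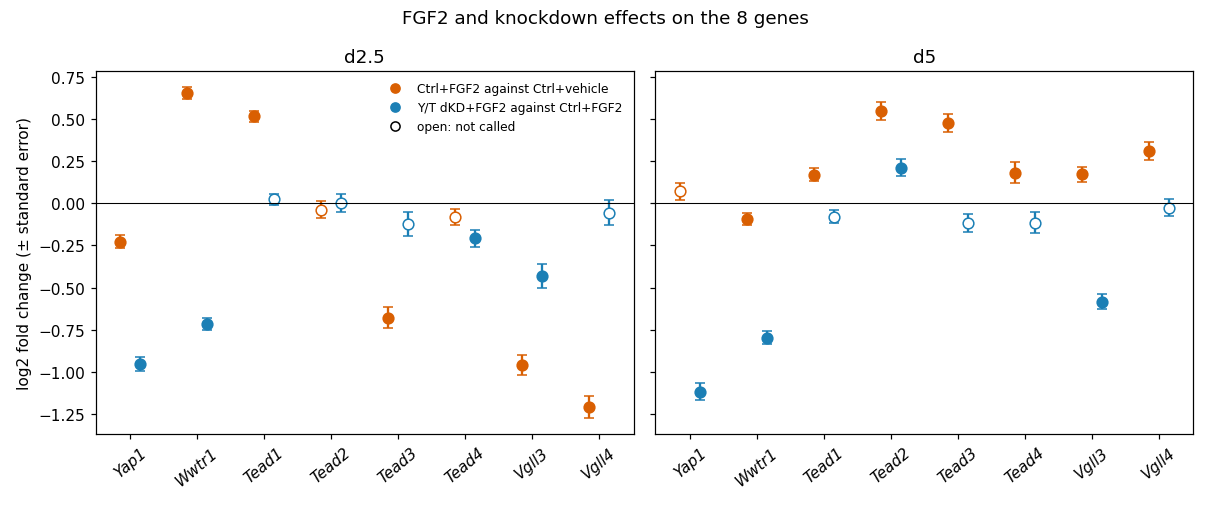
Log2 fold change (points, bars are the SE) of each gene with FGF2 (Ctrl+FGF2 against Ctrl+vehicle) and with knockdown (Y/T dKD+FGF2 against Ctrl+FGF2), one panel a day, with open points for values that did not pass the test. At d2.5 the FGF2 values run from −1.21 for Vgll4 to 0.65 for Wwtr1, and at d5 from −0.09 for Wwtr1 to 0.55 for Tead2.

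Counted over the 8 genes, FGF2 at d2.5 changed 6, of which 2 rose (Wwtr1, Tead1) and 4 fell (Yap1, Tead3, Vgll3, Vgll4). Of all 13677 genes tested on that day 67.6% were called, 33.5% higher and 34.1% lower, so the share among the 8 genes is near the background. Their median absolute log2 fold change was 0.58, against 0.35 over all genes tested. At d5 FGF2 changed 7 of the 8, with 6 higher and only Wwtr1 lower, where 47.2% of 13304 genes were called (23.5% higher, 23.7% lower). With 1 library left out, 5 to 6 of the 8 were called. The median absolute log2 fold change was 0.18 for the 8 genes, against 0.22 over all genes. Knockdown at d2.5 lowered 4 of the 8 (Yap1, Wwtr1, Tead4, Vgll3) and raised 0, where 24.5% of genes were called, 10.8% higher and 13.6% lower. At d5 knockdown lowered 3 (Yap1, Wwtr1, Vgll3) and raised 1 (Tead2), where 31.7% of genes were called, 15.6% higher and 16.1% lower. Yap1 and Wwtr1 are the siRNA targets in these counts, so that 2 of the 6 others were called on each day. The FGF2 and knockdown comparisons of a day share their Ctrl+FGF2 libraries.

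Set directly against vehicle, knockdown cells with FGF2 differed in 6 of the 8 genes on each day. At d2.5 Tead1 was higher (log2 fold change 0.54, SE 0.034) and Yap1, Tead3 (−0.80, SE 0.067), Tead4 (−0.29, SE 0.049), Vgll3 (−1.39, SE 0.066) and Vgll4 (−1.26, SE 0.067) were lower. On that day 69.8% of genes were called, 34.1% higher and 35.7% lower. At d5 Tead2 (0.76, SE 0.053), Tead3 (0.36, SE 0.054) and Vgll4 (0.28, SE 0.052) were higher on the log2 scale, and Yap1 (−1.05, SE 0.052), Wwtr1 and Vgll3 (−0.41, SE 0.044) were lower. The share of all genes called was 41.8% there, with 20.7% higher and 21.1% lower.

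The effect of FGF2 differed between the days for all 8 genes, where 60.9% of 14198 genes were called for such a difference. Vgll4 had the widest gap, with an effect at d5 above that at d2.5 by 1.49 on the log2 scale (SE 0.088, adjusted p = 6.1e-15), followed by Tead3 (1.13, SE 0.08, adjusted p = 3.3e-13) and Vgll3 (1.11, SE 0.08, adjusted p = 5.7e-13). These 3 genes fell with FGF2 at d2.5 and rose with it at d5. Wwtr1 (−0.77, SE 0.052, adjusted p = 1.1e-13) and Tead1 (−0.37, SE 0.052, adjusted p = 4.0e-07) had the higher effect at d2.5. Yap1 (0.27, SE 0.061, adjusted p = 0.00032), Tead2 (0.56, SE 0.076, adjusted p = 2.2e-07) and Tead4 (0.24, SE 0.079, adjusted p = 0.011) had the higher effect at d5, and the call for Tead4 was lost without d5 Ctrl+FGF2 replicate 2 (0.17, adjusted p = 0.0664). The effect of knockdown differed between the days for Tead2 only (0.21, SE 0.074, adjusted p = 0.0454), where 20.9% of genes were called, and 10 of 25 alternative fits called Tead2. For Yap1 the knockdown difference between days was −0.17 (SE 0.067, adjusted p = 0.0812) and for Wwtr1 −0.08 (SE 0.053, adjusted p = 0.297).

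Between the days Vgll3 had the widest range of the 8 genes. At d5 it was above d2.5 by 5.92-fold with vehicle (log2 fold change 2.57, SE 0.054), by 12.8-fold in Ctrl+FGF2 (3.67, SE 0.058) and by 11.5-fold in knockdown cells (3.52, SE 0.063). In the same order Vgll4 was higher by 0.59 (SE 0.059), 2.08 (SE 0.064) and 2.11 (SE 0.067) on the log2 scale, and Tead3 by 0.26 (SE 0.056), 1.39 (SE 0.057) and 1.39 (SE 0.06). Wwtr1 was higher at d5 in Ctrl+vehicle (0.73, SE 0.037, adjusted p = 8.3e-17), differed by −0.04 in Ctrl+FGF2 (SE 0.036, adjusted p = 0.306) and was lower in knockdown cells (−0.12, SE 0.039, adjusted p = 0.0055), a call lost without d2.5 Y/T dKD+FGF2 replicate 1 (−0.092, adjusted p = 0.0503). Tead1 differed by 0.04 (SE 0.037, adjusted p = 0.394) in Ctrl+vehicle and was lower at d5 in both groups with FGF2 (−0.34, SE 0.037 without and −0.44, SE 0.037 with knockdown). Between the days 5 of the 8 genes were called with vehicle, 7 in Ctrl+FGF2 and 7 in knockdown cells, where 66.4%, 80% and 78.4% of all 14198 genes were called. These comparisons cross the labelled batches.

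To compare levels between genes, CPM were divided by the length of the merged exons in kb. At d2.5 Wwtr1 was the highest of the 8 genes per kb in each group, with 29.3 ± 0.392 CPM per kb with vehicle (SD, n = 3), 46.4 ± 0.6198 in Ctrl+FGF2 and 28.4 ± 1.25 in knockdown cells. The vehicle group had next Tead4 (17.6 ± 0.529 CPM per kb) and Tead1 (17.4 ± 0.235), which overlapped each other, then Yap1 (16.2 ± 0.354), Tead2 (11.7 ± 0.129), Vgll4 (10.4 ± 0.286) and Vgll3 (10.2 ± 1.13), the last pair again overlapping, and last Tead3 (5.07 ± 0.138). With FGF2 at d2.5 Tead1 (25.1 ± 1.07 CPM per kb) moved clear of Tead4 (16.8 ± 0.584). At d5 Vgll3 was the highest, with 60.2 ± 1.48 CPM per kb with vehicle, 67.2 ± 4.24 in Ctrl+FGF2 and 45.04 ± 1.52 in knockdown cells, and Wwtr1 the next (48.5 ± 1.401, 45.1 ± 0.601 and 26.03 ± 0.677). In d5 Ctrl+FGF2 cells Tead1 (19.9 ± 0.596 CPM per kb), Vgll4 (19.3 ± 0.3600), Tead4 (18.9 ± 1.85) and Yap1 (16.5 ± 0.644) followed, each overlapping the next. Tead3 was the lowest in 5 of the 6 groups, while in d5 knockdown cells Yap1 (7.61 ± 0.368 CPM per kb) was the lowest and overlapped Tead3 (7.74 ± 0.0682). With the length of the longest transcript in place of the merged exons, the order changed. Tead1 (23.7 CPM per kb) was then clear of Tead4 (20.6) already in d2.5 Ctrl+vehicle. It was first in d2.5 knockdown cells (34.9 CPM per kb, against 28.9 for Wwtr1), and Vgll4 (46.6) and Vgll3 (45.7) overlapped at the top in d5 knockdown cells. Yap1 (28.3) came next after Wwtr1 (29.8) in d2.5 Ctrl+vehicle. Vgll3, and not Tead3, was then the lowest in d2.5 Ctrl+FGF2 (5.34, against 6.23) and in d2.5 knockdown cells (3.98, against 5.76).

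The mix of Tead RNA per kb changed with FGF2 at d2.5. The share of Tead1 in the sum of the 4 Tead genes was 33.5 ± 0.474% in Ctrl+vehicle (SD, n = 3), 44.3 ± 0.445% in Ctrl+FGF2 and 46.8 ± 0.806% in knockdown cells. The share of Tead3 was 9.79 ± 0.231%, 5.65 ± 0.163% and 5.38 ± 0.192% in the same order. At d5 the share of Tead1 was 35.6 ± 0.953%, 32.7 ± 0.423% and 31.5 ± 1.04%, and that of Tead2 was 18.8 ± 0.367%, 22.5 ± 1.32% and 26.4 ± 0.755%. Tead4 held between 26.4% and 34.7% of the sum in each library. The sum itself was 51.8 ± 0.337, 56.6 ± 1.92 and 54.9 ± 1.54 CPM per kb at d2.5 for vehicle, Ctrl+FGF2 and knockdown in turn, and 50.1 ± 2.097, 60.8 ± 2.29 and 60.1 ± 0.358 at d5. On both days the vehicle libraries lay below all others, and the groups with and without knockdown overlapped.

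**Figure D3:**
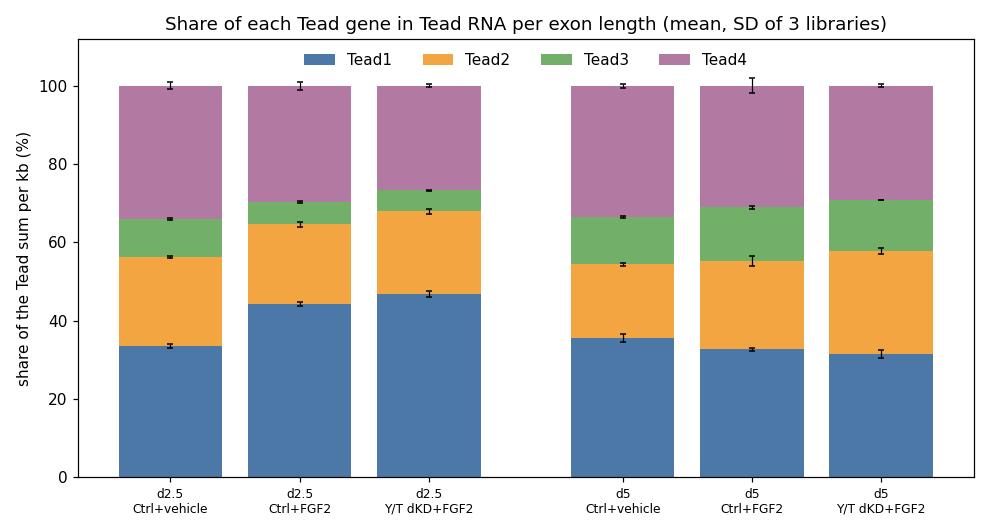
Stacked bars of the share of each Tead gene in the sum of the 4 (percent of CPM per kb of merged exons, from 0), as the mean of 3 libraries with the SD, in the 6 groups. The Tead1 segment is widest in the 2 groups with FGF2 at d2.5 (44.3% and 46.8%) and lies between 31.5% and 35.6% elsewhere.

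Set against the Tead sum, RNA of the coactivators and of the Vgll cofactors moved in different ways. For Ctrl+vehicle, Ctrl+FGF2 and knockdown cells in turn, the ratio of Yap1 to Wwtr1 per kb was 0.552 ± 0.0152, 0.2999 ± 0.00619 and 0.254 ± 0.01499 at d2.5 (SD, n = 3) and 0.326 ± 0.0112, 0.366 ± 0.0189 and 0.293 ± 0.0214 at d5. Yap1 plus Wwtr1 stood to the Tead sum as 0.877 ± 0.0148, 1.07 ± 0.0227 and 0.648 ± 0.00736 at d2.5, and as 1.28 ± 0.0112, 1.01 ± 0.0393 and 0.5598 ± 0.00245 at d5. Ctrl+FGF2 libraries had a higher coactivator ratio than vehicle at d2.5 and a lower one at d5, and knockdown cells had the lowest on both days, with no overlap between the groups of a day. Vgll3 plus Vgll4 stood to the Tead sum as 0.397 ± 0.0196, 0.173 ± 0.00474 and 0.152 ± 0.00445 at d2.5, and as 1.51 ± 0.01003, 1.42 ± 0.0287 and 1.07 ± 0.0218 at d5. These shares and ratios are descriptions without a test. The direction of all 66 differences of shares, sums and ratios between groups within a day was kept with the longest transcript as length and with unstranded counts. The levels depend on the length chosen, and with the longest transcript the ratio of Yap1 to Wwtr1 was 0.951, 0.517 and 0.438 at d2.5 and 0.561, 0.6297 and 0.504 at d5, and the Vgll ratio was 0.507, 0.216 and 0.199 at d2.5 and 1.44, 1.36 and 1.101 at d5.

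**Figure D4:**
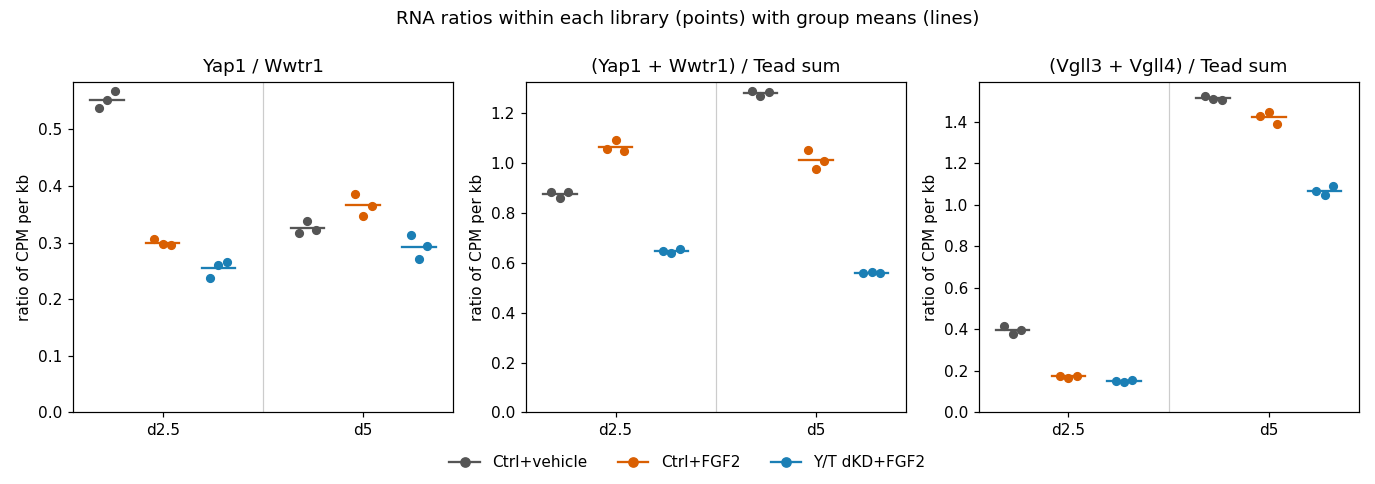
Ratios of CPM per kb within each library (points) with group means (lines, vertical axes from 0) for Yap1 to Wwtr1, Yap1 plus Wwtr1 to the Tead sum, and Vgll3 plus Vgll4 to the Tead sum, by group and day. The coactivator ratio is lowest in knockdown cells (0.648 at d2.5, 0.560 at d5), and every d5 value of the Vgll ratio is above every d2.5 value.

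Markers of mature cell types moved with the days and with FGF2. The summed level of 6 osteoblast markers, mostly Col1a1, was between 13247 and 13407 CPM in d2.5 Ctrl+vehicle, between 2299 and 2426 in Ctrl+FGF2 and between 2163 and 2299 in knockdown cells, and in this order between 31098 and 33113, between 15858 and 17613 and between 21893 and 23256 at d5. Of the 6, between 4 and 6 had a median of at least 1 CPM in a group, and some did not follow the sum. Between Ctrl+FGF2 and knockdown cells at d2.5 the median of Ibsp went from 41.2 to 77.7 CPM, that of Sp7 from 26.004 to 35.2 and that of Runx2 from 90.8 to 97.1. Between vehicle and Ctrl+FGF2 at d5 Runx2 went from 134 to 178 CPM and Sp7 from 34.6 to 43.3, and between d2.5 and d5 with vehicle Sp7 went from 185 to 34.6 CPM and Ibsp from 206 to 112.5. The sum of 4 smooth muscle markers, mostly Acta2, was between 167 and 231, between 22.6 and 23.7 and between 13.7 and 15.3 CPM at d2.5, and between 2032 and 2146, between 2674 and 3070 and between 2111 and 2272 at d5. By group median, the smooth muscle, osteoblast, neuron, glia and endothelium sums all had the same order as Vgll3 and Vgll4 at d2.5 (vehicle, Ctrl+FGF2, knockdown). Single markers did not all follow their sum. The neuron sum was mostly Tubb3, while medians of Snap25 (0.138, 0.873 and 2.10 CPM) and Elavl4 (0, 0.201 and 0.331) rose in that order. The endothelium sum at d2.5 was Pecam1 alone, with Cdh5 and Kdr at 0 counts. At d5 Vgll3, Vgll4 and the smooth muscle, neural crest, endothelium and epithelium sums were all highest in Ctrl+FGF2. The neural crest sum was mostly Prrx1. Medians of Twist1 (91.9, 69.4 and 83.9 CPM) and Nes (2.51, 1.47 and 6.21) were lowest in Ctrl+FGF2, as was that of Epcam among the epithelium markers. The defining smooth muscle markers Cnn1 and Myh11 were between 0 and 1.70 CPM in every library, and Cnn1 had no count in d2.5 knockdown cells. The sum of 3 chondrocyte markers was between 539 and 759 CPM in d2.5 Ctrl+vehicle, between 39.7 and 49.5 in the other d2.5 libraries and between 174 and 348 at d5, with Matn1 at 0 counts in all groups but d2.5 Ctrl+vehicle. Neuron markers summed to between 8.28 and 23.8 CPM at d2.5 and at most 2.21 at d5. Glia, endothelium, blood and immune and epithelium markers summed to at most 4.59 CPM in any library. The part of these markers in the levels of the 8 genes was not tested.

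The rest of the pathway is given by 4 lists of genes. Of 13 genes of the Hippo kinase core, which phosphorylate Yap and Taz or support those that do, FGF2 raised 5 and lowered 2 at d2.5 and raised 1 and lowered 5 at d5. Knockdown raised 2 and lowered 3 at d2.5, and raised 7 and lowered 1 at d5. The shares called were 53.8% and 46.2% with FGF2 at d2.5 and d5, against 67.6% and 47.2% of all genes, and 38.5% and 61.5% with knockdown, against 24.5% and 31.7%. The median log2 fold changes of the list were 0.03, −0.08, 0.05 and 0.13 in this order of comparisons, against 0.00, 0.02, 0.00 and 0.00 over all genes tested. At d5 the 1 gene that FGF2 raised and the 1 that knockdown lowered were the same, Wwc1 (Kibra), an upstream activator of the Lats kinases. For Wwc1 at d5, Ctrl+vehicle libraries held 6.63, 6.67 and 6.19 CPM, Ctrl+FGF2 libraries 19.2, 16.4 and 17.2, and Y/T dKD+FGF2 libraries 5.53, 4.74 and 4.69. FGF2 raised Wwc1 by 1.31 (SE 0.1) on the log2 scale at d2.5 and by 1.45 (SE 0.11) at d5, and knockdown changed it by −0.40 (SE 0.093, adjusted p = 0.0017) and −1.82 (SE 0.12, adjusted p = 2.8e-09). Lats2, a kinase of Yap and Taz, fell with FGF2 at d2.5 (−0.32, SE 0.067), as did the kinase Taok3 (−0.33, SE 0.067), which was lower again with knockdown (−0.32, SE 0.074). Lats1, the other Lats kinase, went the opposite way, from 115, 122 and 115 CPM in d2.5 Ctrl+vehicle to 137, 133 and 139 in Ctrl+FGF2. Map4k4 also rose there, from 421, 438 and 425 CPM to 562, 568 and 563. Mob1b, an activator of the Lats kinases, rose with knockdown by 0.17 (SE 0.057, adjusted p = 0.0282) at d2.5 and by 0.26 (SE 0.045, adjusted p = 0.00021) at d5. The first of these calls was lost without replicate 2 or 3 of Ctrl+FGF2 (adjusted p 0.15 and 0.0613) or replicate 1 or 3 of Y/T dKD+FGF2 (adjusted p 0.0623 and 0.299).

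Of 16 binding partners that hold Yap or Taz at junctions or in the cytoplasm, FGF2 raised 7 and lowered 6 at d2.5 and raised 8 and lowered 1 at d5, while knockdown raised 2 and lowered 3 at d2.5 and raised 3 and lowered 2 at d5. In the same order 81.2%, 56.2%, 31.2% and 31.2% of the list were called, against 67.6%, 47.2%, 24.5% and 31.7% of all genes. Their medians were 0.06, 0.15, −0.01 and 0.04 on the log2 scale. Amot, the angiomotin that binds the WW domains of Yap, fell with FGF2 at d2.5 and rose with it at d5. It was at 186, 173 and 177 CPM in d2.5 Ctrl+vehicle and at 98.1, 90.6 and 94.1 in Ctrl+FGF2 (log2 fold change −0.93, SE 0.039), and at 376, 454 and 417 and at 592, 739 and 666 at d5 (0.69, SE 0.067). Its paralog Amotl2, also on the target list, differed with knockdown by −0.44 (SE 0.057) at d2.5 and −0.57 (SE 0.042) at d5, both called lower. Of 6 genes of Yap and Taz degradation, which target the phosphorylated proteins to the proteasome, FGF2 raised 3 and lowered 2 at d2.5 and raised 3 at d5. Knockdown raised 1 and lowered 2 at d2.5, and raised 1 and lowered 3 at d5, with medians over the 4 comparisons of 0.09, 0.09, −0.05 and −0.08. The shares called were 83.3% and 50% with FGF2, against 67.6% and 47.2% of all genes. With knockdown they were 50% and 66.7%, against 24.5% and 31.7%. These shares rest on 6 genes. Csnk1e, a casein kinase on this list, rose with FGF2 by 0.26 (SE 0.053) at d2.5 and 0.32 (SE 0.043) at d5. Its paralog Csnk1d fell at d2.5, from 179, 183 and 184 CPM in Ctrl+vehicle to 166, 160 and 166 in Ctrl+FGF2. At d5 Csnk1d was higher with FGF2 by 0.12, a call lost with DESeq2 (adjusted p = 0.0681).

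The list of 22 Yap/Taz target genes did not move one way with knockdown. At d2.5, where 21 could be tested (Fjx1 was too low), 8 fell and 4 rose, and at d5 9 fell and 7 rose. With FGF2, 9 rose and 9 fell at d2.5 and 11 rose and 7 fell at d5. The shares called were 57.1% and 72.7% with knockdown at d2.5 and d5, against 24.5% and 31.7% of all genes, and 85.7% and 81.8% with FGF2, against 67.6% and 47.2%. The medians were −0.08 and −0.03 for knockdown and −0.01 and 0.10 for FGF2. For Ankrd1, a cardiac ankyrin repeat protein, at d2.5 Ctrl+vehicle libraries held 9.87, 9.23 and 9.12 CPM, Ctrl+FGF2 libraries 28.9, 26.3 and 28.5, and Y/T dKD+FGF2 libraries 17.1, 18.04 and 19.98, with no overlap of groups. Ankrd1 rose with FGF2 by 1.56 (SE 0.084) at d2.5 and 0.40 (SE 0.11) at d5 on the log2 scale, and knockdown changed it by −0.61 (SE 0.076, adjusted p = 5.6e-07) and −0.51 (SE 0.11, adjusted p = 0.0016). The secreted matrix proteins Ccn1 and Ccn2 went otherwise. Ccn2 was at 364, 419 and 382 CPM in d5 Ctrl+FGF2 and at 624, 555 and 596 with knockdown, a rise of 0.60 on the log2 scale (SE 0.081, adjusted p = 1.6e-05), and it differed by 0.10 at d2.5 (SE 0.037, adjusted p = 0.0576), a difference that was called under 8 alternatives, with values from 0.095 (with only the 2 groups in the fit) to 0.21 (with unstranded counts). Ccn1 was lower with knockdown at d2.5 (−0.22, SE 0.046, adjusted p = 0.0008) and higher at d5 (0.31, SE 0.042, adjusted p = 1.8e-05). Ccdc80, a matrix protein, had the widest fall of the list with FGF2 at d2.5 (−2.63, SE 0.047), and the receptor tyrosine kinase Axl rose then (1.18, SE 0.032). F3 (tissue factor) rose with knockdown at d5 (0.92, SE 0.061), and Gadd45a, a stress response gene, was lower with knockdown at d2.5 (−0.55, SE 0.088) and higher at d5 (0.61, SE 0.079).

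The genes whose pattern over the 18 libraries was most like that of each member were read by Pearson's r of log2 CPM among 11962 genes, as a description, since libraries of a group and a day share their condition. Tead3, Vgll3 and Vgll4 were alike, with r of 0.94 for Tead3 and Vgll3, 0.98 for Tead3 and Vgll4 and 0.95 for Vgll3 and Vgll4. The nearest gene to Vgll3 was Tsc22d2 (r = 0.997), to Vgll4 Mxra8 (0.994) and to Tead3 2310022B05Rik (0.995). The nearest to Tead1 was Slc5a3 (r = 0.98), the sodium and myo-inositol cotransporter, which was at a mean of 35.6 CPM in d2.5 Ctrl+vehicle and 639 in Ctrl+FGF2. Yap1 was most like Loxl4 (r = 0.93), a lysyl oxidase, and Basp1 (0.93), Wwtr1 most like H2-K1 (0.90), Tead2 most like Mex3a (0.95) and Tead4 most like Pld2 (0.89). Ptprb, a receptor tyrosine phosphatase, was among the 3 nearest genes of both Yap1 (r = 0.88) and Wwtr1 (0.86). Yap1 and Wwtr1 themselves had r of 0.71. Both are siRNA targets and were lowered against Ctrl+FGF2 in the same knockdown libraries, so the design itself favours a positive r and shared neighbours.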

How the data were processed

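Bulk RNA-seq of O9-1 cells was analysed in 18 libraries. Each file deposited by the authors holds raw counts of reads for every gene, unstranded and for each strand, with nothing normalized. The submitters' processing notes list FastQC, STAR, Picard, featureCounts and mm10, with roles and versions not given in the sources used here. The reverse-strand counts were used, which held 96.0% to 96.6% of stranded counts. The 4 entries that name no gene (27.0% to 34.4% of a library, reads on several places among them) were left out, which lowers genes with near-identical copies. Of 55335 identifiers, 55154 matched GENCODE M21 on GRCm38, the source of names, coordinates and exon lengths.

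The test was edgeR's quasi-likelihood test (edgeR 4.0.16, R 4.3.3) after TMM and filterByExpr, with Benjamini-Hochberg adjustment over all genes tested, and each day's 9 libraries had a fit of their own. Differences between days were tested in a fit of all 18. All adjusted p-values come from this test unless another is named. The SE is the absolute log2 fold change over the square root of F. The test was also run on simulated counts in which a small part of the genes changed, equally up and down. That setting does not cover comparisons in which most genes are called. Alternatives were DESeq2 1.42.0, RLE and upper-quartile factors, other filters, unstranded counts, a replicate block, only the 2 groups compared, all 18 libraries in 1 fit, adjusted p under 0.01 and leaving out each library. The 8 genes, the lists and the tests were chosen with earlier results of these data known. Named genes were all 8, Ccn1, Ccn2, Ankrd1, Vgll1 and Vgll2, the 3 genes most like each, and from each list up to the 2 called genes with the widest rise and fall in an FGF2 or knockdown comparison whose log2 CPM averaged 1 or more. Lats1 is named beside Lats2 outside this rule.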

Additional observations from a re-analysis of the deposited data

Results flagged for a closer look

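The effect of FGF2 on the log2 scale differed between d5 and d2.5 for each of the 8 genes (edgeR's quasi-likelihood test of the difference, Benjamini-Hochberg adjusted p under 0.05), and for this reason each is listed here, with the value at d5 minus the value at d2.5. The differences were 0.27 for Yap1, −0.77 for Wwtr1, −0.37 for Tead1, 0.56 for Tead2, 1.13 for Tead3, 0.24 for Tead4, 1.11 for Vgll3 and 1.49 for Vgll4. The effect of the knockdown differed between the days for Tead2, by 0.21. Such a difference was called for 60.9% of all 14198 genes for FGF2 and for 20.9% for the knockdown, and the labels give each day its own batch, so that day and batch cannot be told apart.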

How the results depend on the processing

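Over the 8 genes and 11 comparisons, 1952 values were recomputed under the alternatives. Of these, 1877 kept their direction and their side of the threshold, 39 lost the call, 8 gained one and 28 changed sign, all of the last from values that were not called. With the replicate block the count of the 8 genes called was 6 and 4 (FGF2 and knockdown) at d2.5 and 7 and 4 at d5, as without it. For FGF2 at d5 the count was 5 to 6 when 1 library was left out, so the 7 was reached in none of these fits. Same-numbered libraries had correlations of −0.087 to 0.050 at d2.5 and −0.072 to 0.185 at d5. Libraries with different numbers had −0.046 to 0.120 at d2.5 and −0.180 to 0.065 at d5. At d5 2 of 9 same-numbered pairs were above 0.1, against 0 of 18 others. These values do not settle whether the numbers pair the libraries. For the difference of the knockdown effect between days, 0 of the 8 genes were called with RLE or upper-quartile factors, no filter, DESeq2 or adjusted p under 0.01, 2 with at least 10 counts in every library, and 0 to 1 when 1 library was left out. At adjusted p under 0.01 the knockdown called 2057 genes at d2.5, and its difference between days 1781.

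Signs changed for the knockdown at d2.5 on Tead2 (−0.0048 with unstranded counts, −0.00019 with only the 2 groups) and for its difference between days on Tead3 (−0.00065 with RLE factors, −0.018 with upper-quartile factors, −0.014 without a filter, −0.011 with at least 10 counts, −0.00047 with unstranded counts, −0.00068 with DESeq2). For d5 against d2.5 in Ctrl+vehicle, Tead1 was at −0.057 with upper-quartile factors. Leaving out each library gave ranges across 0 for the knockdown at d2.5 on Tead1 (−0.0086 to 0.049), Tead2 (−0.045 to 0.042) and Vgll4 (−0.14 to 0.0083), its difference between days on Tead3 (−0.028 to 0.047) and Vgll4 (−0.046 to 0.10), d5 against d2.5 in Ctrl+vehicle on Yap1 (−0.067 to 0.013) and FGF2 at d2.5 on Ccn2 (−0.023 to 0.00074). No cause of these changes was tested. The 8 genes had at least 240 counts each in every library, and the part of count depth in these changes was not tested.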
